A study of Mus musculus with 6 samples.

Results

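The kynurenine route and NAD synthesis were followed through 10 genes, listed by symbol and all found among the 22183 genes of the deposited table. They were Ido1, Kmo, Kynu, Haao, Acmsd, Qprt, Nadsyn1, Nampt, Nnmt and Cd38. Messenger RNA of mouse kidney was sequenced in 6 libraries. In 3 libraries the mice had received the empty plasmid pcDNA3 and carried the genotype label control. In the other 3 they had received a Wnt1 plasmid and were labelled as overexpressing Wnt1, which encodes a secreted signal that acts through beta-catenin. The title of the series places the work between acute injury and chronic disease of the kidney, but the labels give no injury procedure, strain, age, sex or time after the plasmid, nor the cells that took it up. The labels do not tie libraries to separate mice, and the p-values thus cover the spread among these samples alone, which may be technical.

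NAD carries electrons between metabolic reactions and is also consumed as a substrate by signalling and repair enzymes. Kidney proximal tubule cells can build it de novo from tryptophan through the kynurenine route, and most cells recycle nicotinamide into it through the salvage route. Along the de novo route, a dioxygenase (Ido1, Ido2 or Tdo2) opens tryptophan, Kmo hydroxylates kynurenine, Kynu cleaves the product to 3-hydroxyanthranilate, and Haao oxidises this to an unstable semialdehyde. That semialdehyde either closes on its own to quinolinate, which Qprt and finally Nadsyn1 carry on to NAD, or is diverted from NAD by the decarboxylase Acmsd. Nampt is the rate-limiting enzyme of salvage, Nnmt methylates nicotinamide and so removes it from salvage, and Cd38 is a membrane enzyme that breaks NAD down.

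Libraries held between 23585040 and 27218091 expected counts. Of the Wnt1 transcript itself, 1 read was counted in Wnt1 replicate 2 and 0 in all other libraries, which leaves the labels unchecked. In a principal component analysis the groups separated along the first axis (77.3% of the variance). Along the second (13.8%), the library numbered 3 in each group lay at -32.8 (control) and -50.6 (Wnt1), and all others lay at 17.3 to 22.6. The fold change of each tested member was therefore also computed without both libraries numbered 3. Nephron markers were abundant in all libraries, and summed over 14 proximal tubule markers the level was 46391 to 54114 CPM in control and 8358 to 11983 CPM with Wnt1. CPM is the count of a gene relative to its library total, corrected by the trimmed-mean (TMM) factor of edgeR.

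Most of the de novo route was lower with the Wnt1 plasmid, and salvage by Nampt was not called. Both members that clear nicotinamide or NAD were higher. Of the 10 members, 9 had enough reads to test, and the edgeR quasi-likelihood test called 5 lower (Kmo, Haao, Acmsd, Qprt and Nadsyn1) and 2 higher (Nnmt and Cd38) at an adjusted p under 0.05. The same test called 41.1% of all 14432 tested genes, 18.7% lower and 22.4% higher, so a call by itself was common in this comparison. With library totals in place of the trimmed-mean factors, 6348 genes were called higher and 1288 lower, against 3239 and 2697. The groups did not overlap for 7 of the 9 tested members and for 53.5% of all tested genes. Without both libraries numbered 3, the counts were again 5 lower and 2 higher.

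The members lie on several chromosomes. All coordinates are in GRCm38, the assembly that mm10 names. Of the de novo route, Ido1 (ENSMUSG00000031551) on chromosome 8, 24584136 to 24597009, Kmo (ENSMUSG00000039783) on chromosome 1, 175620381 to 175662116, Kynu (ENSMUSG00000026866) on chromosome 2, 43555329 to 43682715 and Haao (ENSMUSG00000000673) on chromosome 17, 83831156 to 83847963 encode the steps up to the semialdehyde. After it come Acmsd (ENSMUSG00000026348) on chromosome 1, 127729413 to 127767978, Qprt (ENSMUSG00000030674) on chromosome 7, 127107114 to 127122226 and Nadsyn1 (ENSMUSG00000031090) on chromosome 7, 143795584 to 143822849. Salvage and clearance are represented by Nampt (ENSMUSG00000020572) on chromosome 12, 32819545 to 32853349, Nnmt (ENSMUSG00000032271) on chromosome 9, 48591877 to 48605153 and Cd38 (ENSMUSG00000029084) on chromosome 5, 43868553 to 43912375.

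RefSeq promoters (GRCm38.p6, 250 bases before to 50 after the start) were matched for 7 of the 10 members. Those of 3 members are shown, Haao with the largest fall, Qprt with the smallest called fall and Nampt with no call. No promoter of a member called higher is shown. The 250 bases before each start are printed 5′ to 3′ on the strand of the gene, for Haao chr17:83846791-83847040 and Qprt chr7:127122030-127122279 on the minus strand and for Nampt chr12:32820085-32820334 on the plus strand. RefSeq starts need not coincide with the ends of the spans above. Capitals mark the motifs searched on both strands.
Haao: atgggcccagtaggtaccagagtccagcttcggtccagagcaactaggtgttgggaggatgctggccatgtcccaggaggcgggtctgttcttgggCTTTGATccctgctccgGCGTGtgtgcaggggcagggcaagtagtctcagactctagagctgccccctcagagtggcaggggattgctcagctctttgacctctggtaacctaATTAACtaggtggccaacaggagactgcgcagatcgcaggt
Qprt: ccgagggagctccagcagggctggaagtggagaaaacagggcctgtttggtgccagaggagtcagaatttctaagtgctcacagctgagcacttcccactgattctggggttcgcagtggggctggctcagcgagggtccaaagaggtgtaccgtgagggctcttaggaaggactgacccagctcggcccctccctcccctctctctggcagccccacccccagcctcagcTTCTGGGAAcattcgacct
Nampt: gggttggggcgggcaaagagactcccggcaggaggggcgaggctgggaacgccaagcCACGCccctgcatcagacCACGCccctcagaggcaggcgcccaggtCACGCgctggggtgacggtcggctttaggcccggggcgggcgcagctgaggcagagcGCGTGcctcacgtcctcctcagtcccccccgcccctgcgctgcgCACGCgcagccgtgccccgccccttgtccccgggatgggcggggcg
The 7 promoters differed in CpG content, with 36 CpG dinucleotides in 300 bases for Nampt and 27 for Nadsyn1, against 10 for Haao, 7 for Kmo, 7 for Qprt, 2 for Acmsd and 1 for Cd38 (median of 7 over all 32851 promoters). Haao alone held the HNF1 core GTTAAT and the TCF/LEF motif CTTTGAT, found in 7.10% and 3.73% of all promoters. Qprt alone held the STAT motif TTCNNNGAA (8.30% of all). GCGTG, the core of the aryl hydrocarbon receptor site, was in Haao, Nampt and, after its start, Acmsd (32.4% of all). None of the 7 held the core of the interferon response element (3.44% of all), CACGTG (E-box, 7.15%) or TGACTCA (AP-1, 5.20%) in this window. These matches describe the sequence and were not related to binding.

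**Figure D1:**
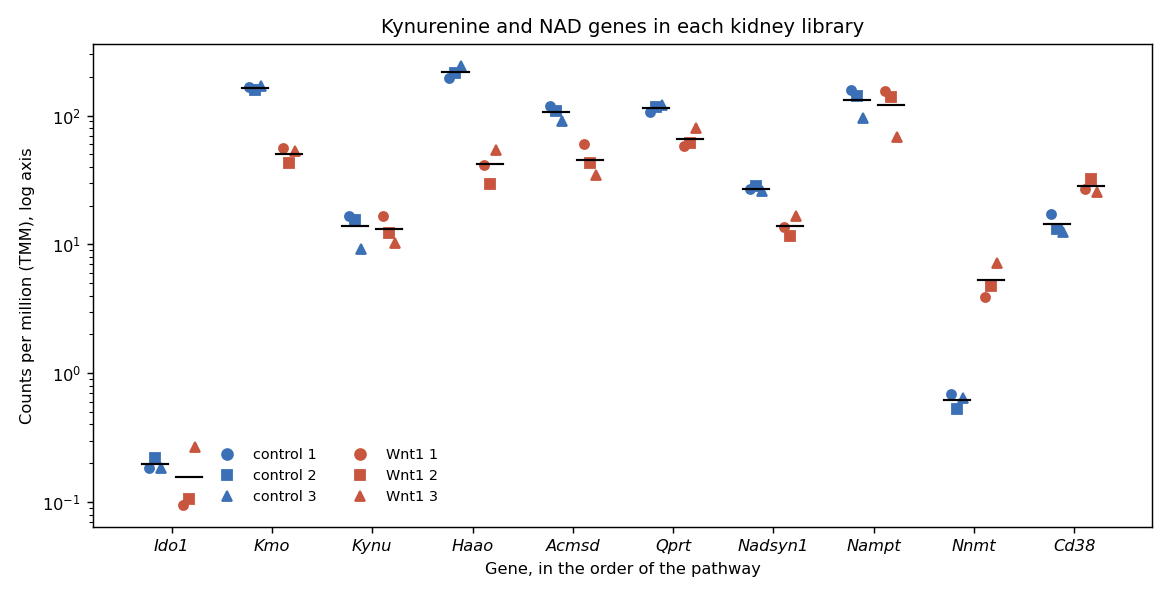
Level of each member in each of the 6 libraries, in CPM on a log axis, with genes in the order of the pathway. Blue marks control and red the Wnt1 plasmid, the marker shape gives the replicate number and the black line the mean of 3. Kmo, Haao, Acmsd, Qprt and Nadsyn1 lie lower with Wnt1 without overlap, Nnmt and Cd38 higher, and in Nampt, Kynu and Ido1 the groups overlap.

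At the first step, Ido1 was scarcely detected in either group. Ido1, the interferon-inducible dioxygenase, had 4, 5 and 4 counts in control replicates 1, 2 and 3 and 3, 3 and 7 counts with Wnt1. These counts lay close to the limit of 3 counts that a count of 0 allows, and they did not pass the filter on low counts. Over 13 counts in each group, the scaled ratio of Wnt1 to control was 0.769, with an exact 95% interval of 0.328 to 1.80 that covers counting error only. At this depth the counts were compatible with any ratio within that interval.

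The other enzymes that can open tryptophan were measured too. Ido2, the relative of Ido1, was the most abundant of the dioxygenases per transcript length, at 4.15 ± 0.83 FPKM (SD, n = 3) in control against 0.107 ± 0.014 for Ido1 and 0.027 ± 0.018 for Tdo2. Ido2 fell by 2.80 ± 0.28 (SE) on the log2 scale, with 11.8 ± 2.37 CPM in control and 1.69 ± 0.486 CPM with Wnt1 (edgeR adjusted p = 0.000205). Tdo2, the dioxygenase best known from liver, had 1 to 4 counts in every library and was not tested.

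Interferon-gamma is the classical inducer of Ido1, and a list of 12 of its targets gives the state of that response in the same libraries. Of the 12, 9 were called higher and 0 lower, with a median log2 fold change of 1.15 against 0.05 for all tested genes. Of all tested genes 22.4% were called higher. The class II activator Ciita rose by 2.08 ± 0.16 and the transcription factor Irf1 by 1.09 ± 0.15. Macrophage and monocyte markers rose with them, with 9 of 10 called higher and a summed level of 202 to 242 CPM in control and 1621 to 1945 CPM with Wnt1. Their part in the interferon list was not tested.

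Kmo, the flavoprotein that commits kynurenine to the branch towards NAD, was lower in each Wnt1 library. It stood at 166, 158 and 169 CPM in control replicates 1, 2 and 3 and at 56.1, 42.6 and 53.5 CPM in Wnt1 replicates 1, 2 and 3. Every control library lay above every Wnt1 library. The log2 fold change was -1.70 ± 0.14 (SE; edgeR adjusted p = 0.000109), a mean level 3.24-fold lower. The annotated span of Kmo overlaps that of Fh1, the fumarate hydratase gene on the opposite strand, and the sources used here do not say whether reads were counted by strand. Fh1 had a log2 fold change of -0.73 ± 0.16.

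Kynu, the kynureninase that acts next, was not called. Its levels were 16.7, 15.4 and 9.27 CPM in control and 16.7, 12.4 and 10.3 CPM with Wnt1, and the groups overlapped in nearly their whole range. The log2 fold change was -0.07 ± 0.27 (edgeR adjusted p = 0.852), and its sign turned with library totals (0.35, adjusted p = 0.327). In both groups the library numbered 3 was the lowest. With both of these left out the log2 fold change was -0.15 (adjusted p = 0.432).

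Haao, the dioxygenase that makes the unstable semialdehyde, had the largest fall among the members and was their most abundant transcript in control kidneys. It stood at 196, 216 and 243 CPM in control replicates 1, 2 and 3 and at 41.6, 29.6 and 54.4 CPM with Wnt1. The mean level was 5.21-fold lower, and the log2 fold change was -2.38 ± 0.23 (edgeR adjusted p = 0.000179). Replicate 3 was the highest library of each group.

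At the branch after Haao, the enzyme that diverts the semialdehyde and the enzyme that carries quinolinate on were both lower. Acmsd, the diverting decarboxylase, stood at 119, 108 and 90.6 CPM in control and at 59.8, 42.5 and 34.3 CPM with Wnt1, with no overlap. The difference was -1.22 ± 0.22 on the log2 scale (edgeR adjusted p = 0.00306). Qprt, the phosphoribosyltransferase that turns quinolinate into nicotinate mononucleotide, stood at 106, 118 and 120 CPM in control and at 57.6, 61.7 and 79.7 CPM with Wnt1. Its log2 fold change was -0.79 ± 0.15 (edgeR adjusted p = 0.00467), the smallest fall among the members called. With library totals, which move the median of all genes from 0.05 to 0.47, Qprt was at -0.37 (adjusted p = 0.0503) and lost its call. Nadsyn1, the synthetase that amidates the nicotinate form to NAD, stood at 26.9, 28.4 and 25.8 CPM in control and at 13.7, 11.7 and 16.5 CPM with Wnt1. Its log2 fold change was -0.95 ± 0.16 (edgeR adjusted p = 0.00239), and it was called lower in each of the 17 alternatives.

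Salvage showed no call at its rate-limiting step. Nampt stood at 159, 143 and 95.4 CPM in control replicates 1, 2 and 3 and at 155, 139 and 68.7 CPM in Wnt1 replicates 1, 2 and 3. Replicates 1 and 2 were at like levels in the groups and replicate 3 was the lowest in each. The log2 fold change was -0.13 ± 0.32 (edgeR adjusted p = 0.775). Without both libraries numbered 3 it was -0.04 (adjusted p = 0.724), and with library totals the sign turned (0.30, adjusted p = 0.484). These values do not show that the level was equal in the groups.

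Both members that clear nicotinamide or NAD rose. Nnmt, the methyltransferase, stood at 0.690, 0.532 and 0.639 CPM in control, from 12 to 15 counts a library, and at 3.93, 4.74 and 7.13 CPM with Wnt1, from 124 to 188 counts. The mean level was 8.50-fold higher, and the log2 fold change was 3.09 ± 0.32 (edgeR adjusted p = 0.000244). Cd38, the NAD glycohydrolase, stood at 17.3, 13.2 and 12.5 CPM in control and at 26.9, 32.1 and 25.6 CPM with Wnt1. Its mean level was 1.97-fold higher, and the change was 0.98 ± 0.18 on the log2 scale (edgeR adjusted p = 0.00319). Every Wnt1 library lay above every control library for both genes.

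Cd38 is carried by many leukocytes, and Nnmt is known from fibroblasts and fat as well as from epithelia. The marker counts that follow stand against 22.4% of all tested genes called higher and 18.7% called lower. Beside Cd38, 8 of 8 T and NK cell markers were called higher (summed level 8.86 to 9.45 CPM in control and 21.1 to 30.7 CPM with Wnt1). Of the 8 B and plasma cell markers, 5 were tested and 4 called higher, from a sum of 9.98 to 12.8 CPM to one of 44.6 to 56.9 CPM. Those called higher were Cd22 (0.437 to 4.19 CPM), Cd79b (1.42 to 2.75 CPM), Ighm (7.98 to 34.2 CPM) and Jchain (0.468 to 6.59 CPM). Cd79a was not called, and Ms4a1, at a mean of 0.195 CPM with Wnt1, was among the markers not tested. Macrophage markers, given above, 6 of 7 dendritic cell markers and all 4 tested of 6 neutrophil markers were also called higher. Beside Nnmt, 9 of 10 fibroblast and mural cell markers were called higher, with a sum of 566 to 728 CPM in control and 2170 to 3511 CPM with Wnt1. Of 8 liver and fat markers, 5 were tested, 0 called higher and 2 lower, with a sum of 189 to 236 CPM in control and 97.1 to 238 CPM with Wnt1. The 2 called lower were the liver genes Alb and Apoa1. The sum lay mainly in the liver genes Ttr (mean of 97.8 CPM in control and 50.9 with Wnt1) and Serpina1a (102 and 108 CPM). Cidec was the only fat marker tested and was not called, so that count and sum say little about fat. The fat marker Adipoq stood at 0, 0.709 and 0.0456 CPM in control replicates 1, 2 and 3 and at 0, 0 and 0.531 CPM with Wnt1. Cidec, another fat marker, stood at 0.184, 1.02 and 0.274 CPM in control and at 0.317, 0.389 and 1.10 CPM with Wnt1. Both were highest in control replicate 2 and Wnt1 replicate 3. The part of leukocytes, fibroblasts and fat in the rise of Cd38 and Nnmt was not tested.

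The falling members can be set beside the proximal tubule, where most of the de novo route is known to be expressed. Of its 14 markers 13 were called lower and 0 higher, with log2 fold changes from -2.86 to -1.04 and a median of -2.02. Over all tested genes 18.7% were called lower and 22.4% higher. The fitted change was larger than that of Haao in 6 of 14 markers, than that of Kmo in 8 of 14 and than that of Acmsd in 11 of 14. All 14 had a larger fitted fall than Qprt and Nadsyn1. Other kidney cell types also had markers called lower and none called higher. These were 5 of 9 for the distal nephron and collecting duct (median -0.95, sum of 8640 to 9372 CPM in control and 2858 to 4526 CPM with Wnt1), 3 of 5 for podocytes (median -0.43) and 4 of 6 for endothelium (median -0.49). In bulk kidney, fewer cells of a type and less RNA per cell cannot be told apart, and the part of the content of tubule or other kidney cells in these falls was not tested.

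Per transcript length, the order of the members differed between the groups. FPKM is scaled by library total without the trimmed-mean factor, so differences between groups are not of the same size as in CPM. The mean of Nampt, for one, was higher with Wnt1 in FPKM and lower in CPM. In control kidneys the authors' FPKM values put Haao first at 153 ± 13.7 (SD, n = 3), then Kmo at 52.6 ± 1.70, Qprt at 48.3 ± 2.46, Acmsd at 33.7 ± 5.12 and Nampt at 26.0 ± 7.27. Neighbours in that order did not overlap over libraries except Acmsd with Nampt and, lower down, Kynu (5.44 ± 1.67) with Cd38 (3.79 ± 0.75). With Wnt1, Haao was at 39.9 ± 11.1 FPKM and overlapped with Qprt (37.3 ± 5.57), Qprt with Nampt (31.6 ± 12.8), Nampt with Kmo (21.7 ± 2.67) and Kmo with Acmsd (19.4 ± 5.74). Neighbours among the 5 upper members thus could not be ordered beyond their spread. Members further apart could in part. The lowest libraries of Haao (28.2 FPKM) and Qprt (32.6) lay above the highest of Kmo (24.1) and Acmsd (25.5). Nnmt, at 0.525 ± 0.087 FPKM in control, reached 5.92 ± 1.72 with Wnt1 and overlapped with Nadsyn1 (6.54 ± 0.85). Haao made up 42.3%, 45.3% and 50.3% of the summed FPKM of the 10 members in control and 21.3%, 16.7% and 28.4% with Wnt1, without overlap. Nampt made up 9.73%, 8.30% and 5.41% in control and 21.1%, 21.9% and 9.60% with Wnt1, so the groups overlapped. Such shares add up to a fixed total, so that a lower share of one member raises those of the others.

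**Figure D2:**
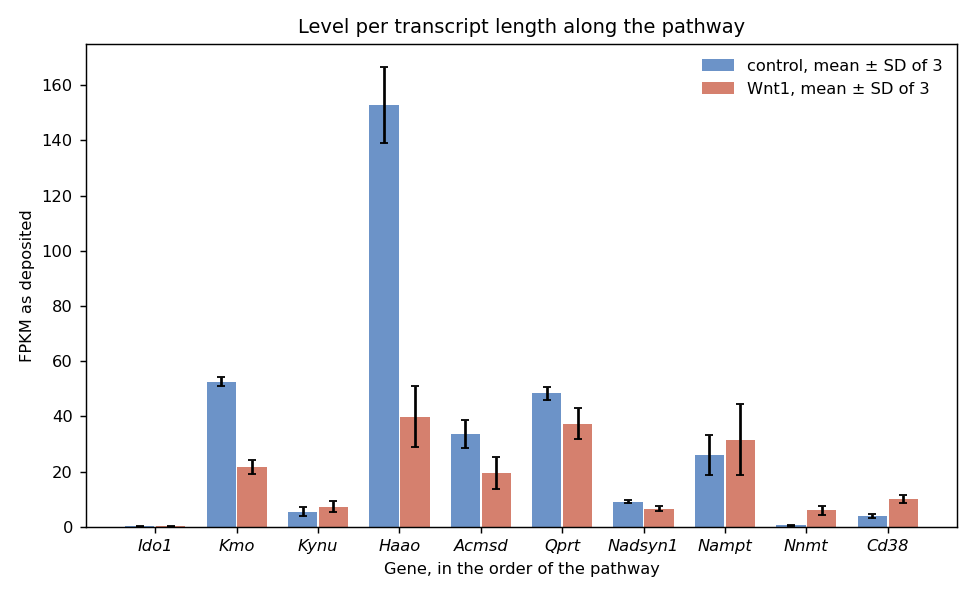
Level per transcript length of each member, in the FPKM values deposited by the authors, as mean and SD of 3 libraries in control (blue) and with the Wnt1 plasmid (red). Haao stands above the other members in control at 153 FPKM, and with Wnt1 it overlaps with Qprt near 39.9 FPKM. FPKM carries no trimmed-mean factor, so differences between groups are not of the same size as in CPM.

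Ratios between 2 members in the same library do not depend on how libraries are scaled, and 4 were computed for enzymes that share a substrate or open rival routes. The log2 ratio of Kynu to Kmo counts was -3.31, -3.36 and -4.19 in control and -1.75, -1.78 and -2.37 with Wnt1. Every Wnt1 library lay above every control library, and the means differed by 1.65 (exact permutation test, two-sided, p = 0.1, adjusted p = 0.2). With 3 libraries a group an exact p cannot go below 0.1, so no ratio could pass 0.05. Nnmt to Nampt, which compete for nicotinamide, moved from -7.85, -8.07 and -7.22 to -5.30, -4.87 and -3.27. These groups did not overlap either, with a difference of 3.23 (exact permutation p = 0.1, adjusted p = 0.2).

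The other ratios overlapped between the groups. Acmsd to Qprt, the balance at the branch, was 0.16, -0.12 and -0.41 in control and 0.06, -0.54 and -1.22 with Wnt1 (difference -0.45, exact permutation p = 0.4, adjusted p = 0.4). Nampt to Qprt, salvage against the de novo route, was 0.58, 0.28 and -0.34 in control and 1.43, 1.17 and -0.21 with Wnt1 (difference 0.62, exact permutation p = 0.3, adjusted p = 0.4). Single libraries moved both differences. For Nampt to Qprt it was 1.12 without Wnt1 replicate 3, 0.30 without Wnt1 replicate 1 and 0.36 without control replicate 3. For Acmsd to Qprt it was -0.12 without Wnt1 replicate 3 and -0.76 without Wnt1 replicate 1.

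**Figure D3:**
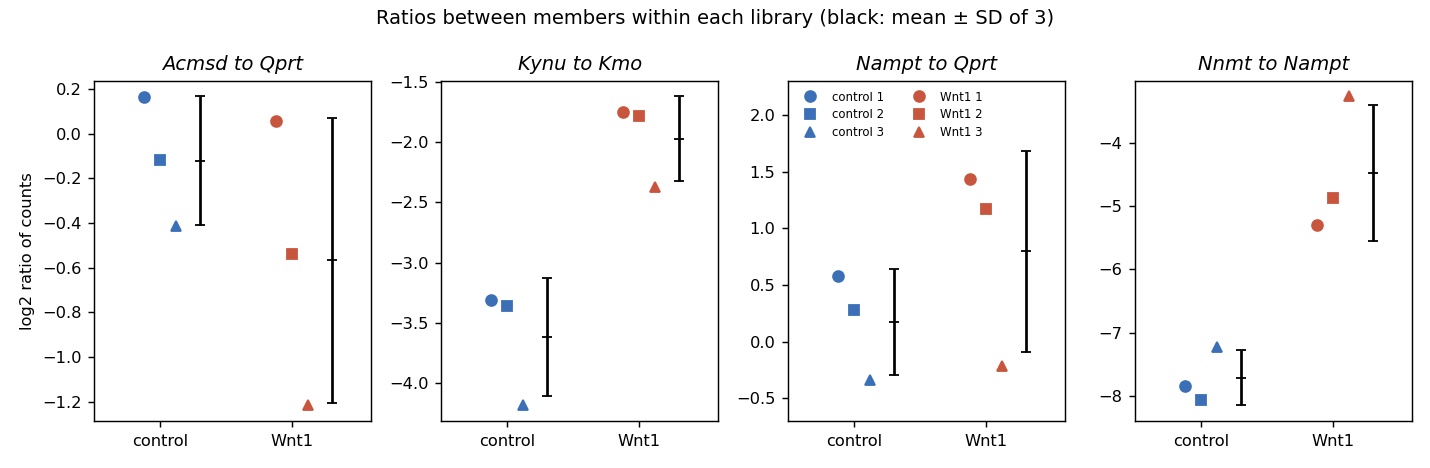
Log2 ratio of the counts of 2 members within each library, for 4 pairs, with control in blue, the Wnt1 plasmid in red, the replicate number as marker shape and the mean and SD of 3 in black. Kynu to Kmo and Nnmt to Nampt part the groups, and in Acmsd to Qprt and Nampt to Qprt the groups overlap.

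Most of the other genes listed with the kynurenine route were also called lower, as were 18.7% of all tested genes. Of 11 other genes, 10 were tested, 8 called lower and 1 higher, with a median log2 fold change of -1.71 against 0.05 for all tested genes, where Tph1, with no control count, is taken at its lower bound (-1.74 over the other 9). Aadat, an aminotransferase that makes kynurenic acid, fell by 2.82 ± 0.17 on the log2 scale (378 ± 55.6 to 53.6 ± 7.31 CPM, edgeR adjusted p = 3.6e-05). Kyat3, another kynurenine aminotransferase, fell by 1.74 ± 0.16. Ddc, the decarboxylase of aromatic amino acids, fell by 1.54 ± 0.13. The part of tubule content in these falls was not tested. Tph1, which starts the serotonin branch, had 0 counts in control and 18, 22 and 11 counts with Wnt1, at least 4.33-fold higher at 3 counts per control library (edgeR adjusted p = 0.00261); it was named as the 1 gene called higher, after its value was seen.

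Among other genes of NAD synthesis and salvage, calls were to the lower side. Of 11 genes, 9 were tested, 6 called lower and 0 higher, against 18.7% and 22.4% of all tested genes. The median log2 fold change was -0.57 against 0.05 for all tested genes. Aspdh, an aspartate dehydrogenase domain protein, fell by 3.02 ± 0.29 (64.3 ± 6.77 to 7.91 ± 3.15 CPM). Naprt, which salvages nicotinic acid, fell by 0.82 ± 0.15. Nmnat1, the nuclear adenylyltransferase, fell by 0.76 ± 0.14. Slc25a51, the mitochondrial NAD carrier, fell by 0.57 ± 0.11 (226 ± 2.05 to 152 ± 2.93 CPM). With library totals the list gave 2 lower and 1 higher, as it did in each setting on FPKM. In all of these settings Nmnat1 (-0.34 with library totals) and Slc25a51 (-0.15) were no longer called.

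NAD users went both ways. Of 16 genes, all tested, 6 were called higher and 4 lower, with a median log2 fold change of 0.06 against 0.05 for all tested genes. Over all tested genes 22.4% were called higher and 18.7% lower, so calls in both directions were common outside the list too. Parp14, an interferon-responsive ADP-ribosyltransferase, rose by 1.68 ± 0.28 (edgeR adjusted p = 0.00253), with replicate 3 the lowest Wnt1 library at 42.6 CPM against 76.8 and 95.3. Bst1, the neighbour and relative of Cd38, rose by 0.87 ± 0.16 (14.9 ± 2.18 to 27.3 ± 2.22 CPM), and Parp3 by 0.65 ± 0.12. Nnt, the transhydrogenase that couples NADH to NADPH, fell by 1.77 ± 0.22. It is listed under 2 overlapping models that could share reads. The value is that of ENSMUSG00000025453 alone, and the other model is not given here. The count of lower genes was 1 with library totals, without a filter on low counts and in each setting on FPKM, and 2 with upper-quartile factors. It was 1 without any one of the 3 control libraries and 2 without Wnt1 replicate 1.

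Carriers of tryptophan and nicotinate at the cell membrane were lower. Of 9 genes, 7 were called lower and 1 higher, against 18.7% and 22.4% of all tested genes. The median log2 fold change was -1.03 against 0.05, and without Wnt1 replicate 3 the count of higher genes was 2. Slc6a19, the apical carrier of neutral amino acids, fell by 2.76 ± 0.25, and its partner Cltrn fell by 1.71 ± 0.17. Slc22a13, a carrier of urate and nicotinate, fell by 2.15 ± 0.19, and the monocarboxylate carrier Slc5a8 fell by 1.62 ± 0.16. Slc7a5, the large neutral amino acid carrier and the member called higher, went from 6.12 ± 0.562 to 15.3 ± 3.40 CPM (1.32 ± 0.20, edgeR adjusted p = 0.00143); it was named after its value was seen. All of these except Slc7a5 are known from the proximal tubule, whose markers moved the same way, and the part of tubule content was not tested here either.

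**Figure D4:**
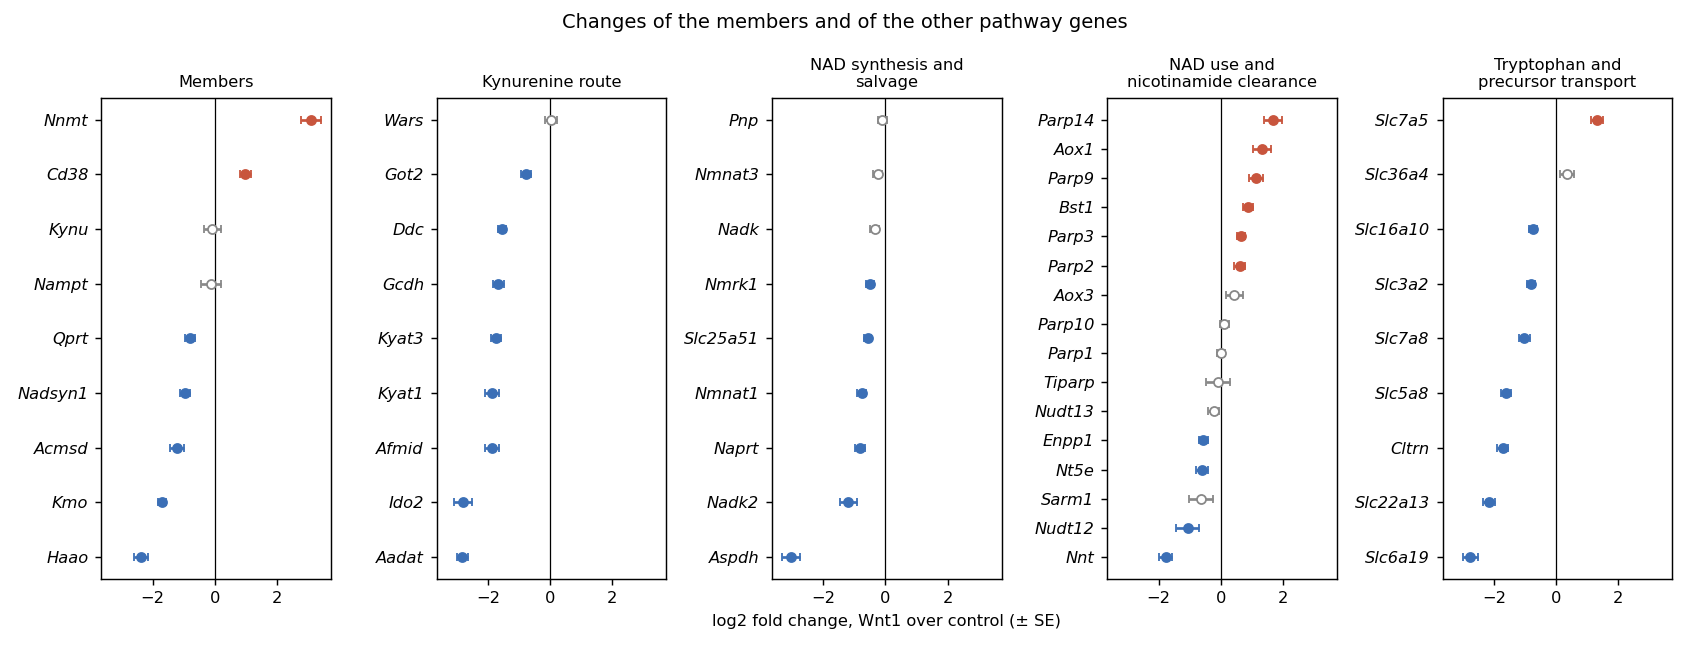
Log2 fold change, Wnt1 over control, with its standard error for the 9 tested members and the tested genes of 4 pathway lists, without Tph1, which had no control count. Blue marks genes called lower, red genes called higher and open grey circles genes not called. The falls reach -2.38 among members (Haao) and -3.02 among the other genes (Aspdh), and the largest rise is that of Nnmt at 3.09.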

How the data were processed

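The submitters' processing notes name mm10 as the build and RSEM, StringTie 1.3.1, HISAT2, Bowtie2 2.2.8 and fastp 0.18.0 as tools; their roles, the annotation and the use of strand are not stated there. Per the labels' protocols, the libraries were made from poly(A)-selected RNA. For each gene and library the authors deposited an expected count, which estimates reads and need not be whole, and an FPKM value, scaled by transcript length and library total. Expected counts were rounded (9.02% were not whole within 1e-06).

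Counts were tested in R 4.3.3 with edgeR 4.0.16 (filterByExpr, TMM factors, robust quasi-likelihood test, two-sided, Benjamini-Hochberg adjustment over 14432 genes). The procedure was tested on simulated data in which few genes changed. That does not test the scaling in data where 41.1% of genes were called. Calls were made where the adjusted p was under 0.05. Fold changes are given as log2 of Wnt1 over control, and the standard error was derived from the coefficient and its F statistic, so it is not independent of the p-value. Levels are CPM with TMM factors, mean ± SD of 3 libraries. Lists are described by counts and medians, without a set test. Coordinates are from GENCODE M21.

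Replicate numbers follow record order and pair no libraries. The members and lists were chosen with earlier results of these data known. All members were named whatever their values, with up to 4 called genes of each pathway list by smallest p, the fixed genes Tdo2, Naprt, Nmnat1 and Bst1, and the 3 genes most like Qprt and Nampt; some genes that the rule took are left out of the text. Up to 2 called genes of each marker list were also eligible, and marker lists are given mainly by counts and sums. Cd79a, Cd79b, Jchain, Ms4a1, Ttr, Serpina1a, Adipoq and Cidec were named outside the rule, after their values were seen. Alternatives were DESeq2 1.42.0, other scaling factors, other filters, limma 3.58.1 on FPKM with a pseudocount of 1 or 0.1, voom with quality weights, and leaving out libraries. Intervals and limits cover counting error only.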

Additional observations from a re-analysis of the deposited data

How the results depend on the processing

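No paired analysis was possible because the replicate numbers follow the order of the records and name no shared animal, litter or batch. The counts of 5 members lower and 2 higher were within 1.5 times the reported value in all 17 alternatives. Kmo, Haao, Acmsd, Nadsyn1, Nnmt and Cd38 were called in the same direction in each, and Qprt lost its call with library totals (-0.37, adjusted p = 0.0503) and on log2(FPKM + 1) without a filter (-0.37, adjusted p = 0.0562; range over the alternatives 3.07e-05 to 0.0562).

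Scaling moved the counts over all genes. Genes called higher numbered 6348 with library totals and 5144, 5139 and 5949 by limma on log2(FPKM + 1), log2(FPKM + 0.1) and log2(FPKM + 1) without a filter, against 3239. Genes called lower numbered 1288, 1238, 1234 and 1273 in these settings, 4430 by voom with quality weights and 4432 without both libraries numbered 3, against 2697, and between 1797 and 3977 with each library left out in turn, the lowest without control replicate 2. Pathway list genes called lower numbered 17, 16, 16 and 17 in the first 4 settings, against 26. The cause was not tested beyond the shift of the median of all genes, which was 0.47 with library totals and 0.22 to 0.41 with FPKM.

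Genes not called in the reported fit turned sign in some settings, and 1 of them, Stx7, was then called higher with library totals (adjusted p = 0.0328) and in the 3 FPKM settings (0.0368, 0.0367 and 0.0457). Kynu was at 0.0346 with upper-quartile factors, 0.35 with library totals, 0.0075 without a filter, 0.38 on log2(FPKM + 1) with or without a filter and 0.44 on log2(FPKM + 0.1), and at -0.28 to 0.16 with each library left out. Nampt was at 0.30 with library totals, 0.22 in the 3 FPKM settings and 0.0133 by voom, and at -0.35 to 0.15 with each library left out. Of the genes most like Nampt, Stx7 was at 0.0722 with upper-quartile factors, 0.39 with library totals, 0.0402 without a filter, 0.37, 0.38 and 0.37 in the FPKM settings and 0.0038 by voom, with -0.0798 to 0.0628 on leaving out a library. Usp24 was at 0.31 with library totals and 0.26, 0.27 and 0.26 with FPKM, with -0.25 to 0.0821 on leaving out a library. Vps26a was at 0.0049 with upper-quartile factors, 0.32 with library totals and 0.28, 0.29 and 0.28 with FPKM, with -0.23 to 0.11 on leaving out a library. Depth limits Ido1 and Tdo2, which had at most 7 counts in a library.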

Other observations

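Kynurenine and its relatives are ligands of the aryl hydrocarbon receptor and of Gpr35, and genes of that axis were listed apart from the pathway. Of 8 genes, 6 were tested, 3 called higher and 1 lower, against 22.4% and 18.7% of all tested genes. The median log2 fold change was 0.61 against 0.05, and 5 were called higher with library totals. The receptor Ahr rose from 8.35 ± 1.57 to 17.6 ± 3.68 CPM (1.08 ± 0.22, edgeR adjusted p = 0.00561). Gpr35, which binds kynurenic acid, rose from 1.09 ± 0.219 to 5.54 ± 0.763 CPM (2.35 ± 0.25, edgeR adjusted p = 0.000267). The receptor's usual targets differed in direction. Cyp1b1 rose by 1.25 ± 0.27 (23.5 ± 5.06 to 56.1 ± 18.7 CPM, edgeR adjusted p = 0.00832) and Cyp1a1 fell by 2.14 ± 0.42 (1.36 ± 0.0707 to 0.304 ± 0.178 CPM, edgeR adjusted p = 0.00456). Fibroblast markers, which rose with Cyp1b1, and macrophage markers, which rose with Gpr35, are given above, and their part was not tested.

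By Pearson r of log2 CPM over the 6 libraries, the tested genes most like Qprt included Rabggta (r = 0.9991) and Ehd1 (0.9983). Those most like Nampt were Stx7 (r = 0.9986), Usp24 (0.9974) and Vps26a (0.9965). The likeness holds the difference between the groups for Qprt, and the low libraries numbered 3 for Nampt. It is given as a description over 6 libraries, chosen as the highest among the tested genes with a named symbol, with no test.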
